A study of Mus musculus with 2 samples.

Results

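The 10 genes described here are RNA sensors and their antiviral signalling partners, measured in mouse embryonic stem (ES) cells labelled as lacking Dgcr8, a gene needed to make most microRNAs. They are the sensors Ddx58, Ifih1, Dhx58 and Tlr3, the adaptor Mavs, the kinases Tbk1 and Eif2ak2, the transcription factors Irf3 and Irf7, and the interferon gene Ifnb1. They were taken by name, through their Ensembl identifiers, from 43629 gene rows, and all 10 had a row in both count files. Polyadenylated RNA was sequenced from 2 libraries, replicates A and B, of ES cells labelled as a Dgcr8 knockout on a 129/Ola background at passage 7. The knockout was made with paired CRISPR/Cas9 cuts, and Dgcr8 encodes the partner of Drosha that is needed to cut primary microRNAs. The sample titles also carry the codes KO2 and d5, which the labels do not explain, so whether the cells are 1 clone is not known here. All libraries belong to 1 group, so the values are levels in knockout cells and no wild-type level was analysed here.

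Double-stranded RNA, a common product of viral replication, is recognised in the cytosol by the helicases RIG-I (Ddx58) and MDA5 (Ifih1). Their relative LGP2 (Dhx58) lacks the signalling domain and regulates both. RIG-I and MDA5 act through MAVS, an adaptor on mitochondria, which activates the kinase TBK1. TBK1 phosphorylates IRF3 and IRF7, and these factors switch on interferon genes such as Ifnb1. TLR3 detects double-stranded RNA in endosomes, and the kinase PKR (Eif2ak2) stops translation when it binds such RNA. ES cells are known for a weak interferon response, and Mavs mRNA has been described as a microRNA target in mouse ES cells.

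The libraries held 30327146 counts in B and 27872396 in A. Dgcr8 itself had 1942 counts in B and 1253 in A, but counts per gene do not show which exons were read, so they do not check the knockout. Levels in CPM are counts divided by the library total and multiplied by 1000000. All 8 ES cell markers reached 1 CPM in both libraries, and their summed level was 6322 CPM in B and 9398 in A. Of 10 fibroblast markers 5 reached 1 CPM in both, and summed levels of all 10 were 32.9 CPM in B and 49.5 in A. The highest were Thy1 (21.9 CPM in B, 31.4 in A) and Pdgfrb (3.59 in B, 10.7 in A). Another 5 lay under 1 CPM in both, with Lum and Postn at 0 counts. Of 9 leukocyte markers 3 reached 1 CPM in both. These were Cd68 (720 counts in B, 412 in A), Cd3e (167 in B, 223 in A) and Cd79a (49 in B, 110 in A). The other 6 lay under 1 CPM in both, among them Ptprc at 5 counts in B and 1 in A. Summed levels of all 9 were 32.5 CPM in B and 28.3 in A. Of 12 markers of primitive and visceral endoderm, 7 reached 1 CPM in both libraries, and none was at 0 in both. The summed level of all 12 was 240 CPM in B and 85.1 in A. Lama1 (142 CPM in B, 47.3 in A) and Col4a1 (56.7 in B, 21.1 in A) were the largest parts of that sum. Sox17, Foxa2 and Afp lay under 1 CPM in both.

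The members ranged between 0 counts and 24.8 RPKM. Of the 10 genes, 6 reached 1 CPM in both libraries (60% of members, beside 56.4% of the 23698 genes with a count), namely Ddx58, Dhx58, Mavs, Tbk1, Irf3 and Eif2ak2. The other 4, Ifih1, Tlr3, Irf7 and Ifnb1, lay under 1 CPM in both. All 10 are protein-coding, and 55.6% of all 21551 protein-coding genes, those at 0 counts included, reached 1 CPM in both. Levels between genes are compared in RPKM, which is CPM per kilobase of annotated exon. The median RPKM of the members was 3.29 in B and 2.55 in A, against 1.17 in B and 1.34 in A over all genes with a count. Over all protein-coding genes, those at 0 counts included, it was 0.780 in B and 0.979 in A. By mean RPKM the order was Ddx58, Mavs, Irf3, Tbk1, Eif2ak2, Dhx58, Tlr3, Irf7, Ifih1 and Ifnb1. The ranges of Mavs and Irf3 over both libraries did not overlap, while those of Irf3, Tbk1 and Eif2ak2 overlapped each other and that of Ddx58 reached from Eif2ak2 to above Mavs. Dhx58 lay below these 5 genes and above Tlr3 in both libraries. The last 3 genes had 3 counts or fewer per library, so their order cannot be read.

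**Figure D1:**
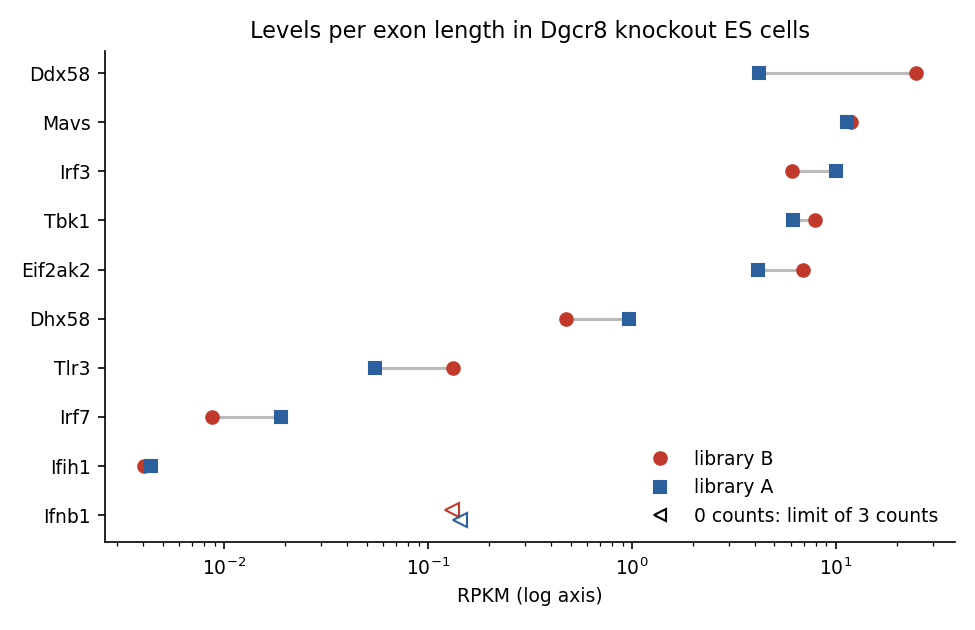
RPKM of each of the 10 members (rows) on a log axis, with a circle for library B and a square for library A. Open triangles mark the limit of 3 counts for Ifnb1, which had 0 counts; Ddx58 shows the widest gap between the libraries, at 24.8 RPKM in B and 4.19 in A.

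The 3 RIG-I-like receptors stood at very different levels. Ddx58 (ENSMUSG00000040296, GRCm38 chromosome 4, 40203773 to 40239828, minus strand) had 5295 counts in B and 823 in A, or 175 CPM in B (95% Poisson interval 170 to 179) and 29.5 in A (27.5 to 31.6). It was the highest member in B and only the fourth in A. In RPKM it exceeded 82.6% of the 11984 expressed protein-coding genes (1 CPM or more in each library) in B, and 39.4% of them in A. Ifih1 (ENSMUSG00000026896, chromosome 2, 62595798 to 62646255, minus strand) had 1 count in each library, although its annotated exons cover 8165 bases. Those single counts put Ifih1 at 0.0330 CPM in B (0.000835 to 0.184) and 0.0359 in A (0.000908 to 0.200). Per length, Ddx58 exceeded Ifih1 6132-fold in B (exact 95% interval 1100 to 242263) and 953-fold in A (171 to 37693). Dhx58 (ENSMUSG00000017830, chromosome 11, 100694884 to 100704271, minus strand) was low but detected, with 47 counts in B and 88 in A, or 1.55 and 3.16 CPM. Per length, Ddx58 exceeded Dhx58 52.3-fold in B (39.3 to 71.3) and 4.34-fold in A (3.48 to 5.47). Ddx58 was thus the highest of the RIG-I-like receptors in each library, and Ifih1 the lowest. All such intervals, and the limits given for counts of 0, account for counting error alone, because reads lacking molecular identifiers can be copies of 1 molecule. Folds between genes also depend on the length used for each gene, which the intervals leave out. In bulk RNA, fewer cells carrying a transcript and less transcript per cell cannot be told apart.

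Sequence around the start of transcription is shown for the members that hold the interferon-stimulated response element, the motif through which interferon raises many of these genes. Its letters, GAAA followed by any 2 bases and another GAAA, were searched on both strands of the RefSeq promoter windows (GRCm38.p6), which run from 250 bases before to 50 bases after the start. Windows were matched for 9 members, and Dhx58 was not among them. Of the 9, 3 held the motif, beside 3.44% of all 32851 windows. They were Ddx58, Ifih1 and Eif2ak2. All their matches lay after the start, at bases 3 to 12 in Ddx58 on the opposite strand, 33 to 42 in Ifih1 and 19 to 28 in Eif2ak2. In the 250 bases before the start, the window first planned, none of the 9 held it, beside 2.98% of all windows. The 3 matches thus depend on the 50 bases after the start. The stretches below run 5′ to 3′ on the gene's strand, all minus, at chr4:40239804-40239833 for Ddx58, chr2:62646206-62646233 for Ifih1 and chr17:78882535-78882564 for Eif2ak2. Capitals mark the motif.
Ddx58: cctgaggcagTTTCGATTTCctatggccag
Ifih1: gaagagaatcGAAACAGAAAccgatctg
Eif2ak2: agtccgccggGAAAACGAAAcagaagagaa
These 3 genes share the letters of the motif near the start but stood at different levels. Ddx58 was at 24.8 RPKM in B and 4.19 in A, and Eif2ak2 at 6.88 in B and 4.13 in A. Ifih1 was at 0.00404 in B and 0.00439 in A. By this measure Ddx58 and Eif2ak2 lay apart in B and close together in A. With the longest transcript as length, Ddx58 stood at 7.62 RPKM and Eif2ak2 at 4.90 in A, so that closeness depends on the length used. A match is a description of the letters and does not show that a factor binds there.

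Cofactors of the receptors were well expressed. Of 11 genes, 10 reached 1 CPM in both, and the median of the list was 8.25 RPKM in B and 8.85 in A. The highest were the helicase genes Dhx9 (86.0 RPKM in B, 38.2 in A) and Dhx15 (52.3 in B, 30.8 in A), and Trim25, which encodes a ubiquitin ligase that activates RIG-I (47.6 in B, 39.4 in A). Rnf125, whose product marks RIG-I for degradation, stood at 7.69 RPKM in B and 2.35 in A. None of the 11 lay under 1 CPM in both libraries, and Trim65, a ligase acting on MDA5, had 15 counts in B and 30 in A.

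Mavs, the adaptor of both receptors, stood at close levels in the libraries. Mavs (ENSMUSG00000037523, chromosome 2, 131234063 to 131248025, plus strand) had 1205 counts in B and 1055 in A, or 39.7 CPM in B (37.5 to 42.0) and 37.9 in A (35.6 to 40.2). It reached 11.9 RPKM in B and 11.3 in A, above 66.5% and 64.6% of the expressed protein-coding genes named above. Set against its upstream sensor per length, Ddx58 stood at 2.08-fold the level of Mavs in B (1.96 to 2.22) and at 0.370-fold in A (0.337 to 0.406). The order of sensor and adaptor therefore differed between the libraries. With the longest transcript as length that order was the same, but the folds changed. Ddx58 then stood at 45.1 RPKM in B and 7.62 in A, and Mavs at 13.0 in B and 12.4 in A.

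Tbk1, the kinase downstream of MAVS, lay somewhat lower than its adaptor. Tbk1 (ENSMUSG00000020115, chromosome 10, 121546455 to 121586787, minus strand) had 933 counts in B and 669 in A, or 30.8 and 24.0 CPM. Mavs exceeded Tbk1 per length 1.51-fold in B (1.38 to 1.65) and 1.84-fold in A (1.67 to 2.03). With the longest transcript as length, Mavs stood at 13.0 RPKM in B and 12.4 in A, and Tbk1 at 10.2 in B and 7.94 in A. The related kinase gene Ikbke, chosen after its values were seen, stood far lower, with Tbk1 14.7-fold above it in B (12.4 to 17.7) and 13.4-fold in A (11.0 to 16.5). All 17 listed partners of MAVS and TBK1 reached 1 CPM in both, and their median was 2.43 RPKM in B and 2.91 in A. Pcbp2, which directs degradation of MAVS, was the highest of them at 211 RPKM in B and 260 in A. Tomm70a, an import receptor that anchors the complex to mitochondria, followed with 40.2 in B and 28.1 in A, and Rnf5, another ligase of the pathway, with 22.5 in B and 38.0 in A. Ripk1 (2.43 RPKM in B, 1.20 in A) and the adaptor gene Tradd (1.71 in B, 3.73 in A) had the largest ratios between the libraries in this list.

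The interferon regulatory factors split into a present and an almost absent gene. Irf3 (ENSMUSG00000003184, chromosome 7, 44997648 to 45002848, plus strand) had 638 counts in B and 959 in A, or 21.04 CPM in B (19.4 to 22.7) and 34.4 in A (32.3 to 36.7). Irf7 (ENSMUSG00000025498, chromosome 7, 141262706 to 141266481, minus strand) had 1 count in B and 2 in A, or 0.0330 CPM in B (0.000835 to 0.184) and 0.0718 in A (0.00869 to 0.259). Per length Irf3 exceeded Irf7 700-fold in B (125 to 27688) and 526-fold in A (145 to 4350). IRF3 is known as a constitutive protein, whereas Irf7 is itself raised by interferon in most cells. Among 14 other IRF and NF-kB genes, 11 reached 1 CPM in both, and the median was 2.51 RPKM in B and 2.79 in A. Nfkbia, which encodes the inhibitor of NF-kB (19.7 RPKM in B, 44.5 in A), Irf1 (7.75 in B, 12.2 in A) and Rela (9.23 in B, 10.4 in A) were highest. Irf2 had 13 counts in B and 8 in A, Irf4 had 3 in B and 0 in A, and Irf8 had 34 in B and 78 in A.

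The endosomal sensor was detected at a low level. Tlr3 (ENSMUSG00000031639, chromosome 8, 45395665 to 45411080, minus strand) had 21 counts in B and 8 in A, or 0.692 CPM in B (0.429 to 1.06) and 0.287 in A (0.124 to 0.566). Ddx58 exceeded Tlr3 per length 186-fold in B (122 to 301) and 76.0-fold in A (38.4 to 177). Of 8 other Toll-like receptor and adaptor genes, 4 reached 1 CPM in both libraries. These were the adaptor genes Myd88 (5.17 RPKM in B, 5.61 in A) and Ticam1, the adaptor of TLR3 (180 counts in B, 198 in A), the receptor gene Tlr2 (3.21 RPKM in B, 6.58 in A) and Unc93b1, which carries TLR3 to endosomes (0.925 in B, 4.25 in A). Tlr4 had 2 counts in B and 0 in A, Tlr7 had 7 in B and 1 in A, and Tlr8 had 0 in both.

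Genes that sense cytosolic DNA were measured as a neighbouring pathway, and 3 of 5 reached 1 CPM in both libraries. Aim2, an inflammasome sensor, stood at 18.1 RPKM in B and 8.93 in A. Cgas, which makes a messenger nucleotide on DNA, stood at 0.847 in B and 0.696 in A, and Tmem173, which encodes its receptor STING, at 1.46 in B and 1.20 in A. Ifi204 had 0 counts in both libraries. Trex1 was listed at 0 as well, but all of its exon bases (100%) are also exons of another gene on the same strand. How reads shared by overlapping genes were counted is not given, so that 0 cannot be read as absence.

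Eif2ak2, the gene of the RNA-activated kinase PKR, was expressed in both libraries. Eif2ak2 (ENSMUSG00000024079, chromosome 17, 78852564 to 78882573, minus strand) had 1067 counts in B and 589 in A, or 35.2 CPM in B (33.1 to 37.4) and 21.1 in A (19.5 to 22.9). The heme-regulated kinase gene Eif2ak1, which acts on the same initiation factor, stood per length at 2.18-fold the level of Eif2ak2 in B (2.02 to 2.34) and at 3.56-fold in A (3.25 to 3.90). All 7 genes of the eIF2alpha kinase and phosphatase list reached 1 CPM in both, and their median was 14.97 RPKM in B and 14.7 in A. The substrate gene Eif2s1 led with 77.5 RPKM in B and 57.5 in A, ahead of the phosphatase subunit genes Ppp1r15b (36.8 in B, 23.8 in A) and Ppp1r15a (17.1 in B, 23.1 in A). Among 8 genes that cut or edit double-stranded RNA, 7 reached 1 CPM in both. Drosha stood at 75.7 RPKM in B and 52.4 in A, Tarbp2 at 19.8 in B and 21.8 in A, and Dicer1 at 12.3 in B and 8.45 in A. Prkra, whose protein activates PKR, stood at 4.23 RPKM in B and 8.85 in A, and Adar, the RNA-editing enzyme gene, at 8.71 in B and 5.77 in A.

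None of the 10 interferon genes examined had more than 1 count in a library. Ifnb1 (ENSMUSG00000048806, chromosome 4, 88522025 to 88522774, minus strand) had 0 counts in B and in A, and a limit of 3 counts corresponds to 0.0989 CPM in B and 0.108 in A. Its single exon of 750 bases turns this into a limit of 0.132 RPKM in B and 0.144 in A. That limit lies above the measured level of Ifih1 and Irf7, so Ifnb1 could not be ranked against them. Of 9 other interferon genes 8, Ifna1, Ifna2 and Ifna4 among them, also had 0 counts in both libraries, and the ninth, Ifne, chosen after its values were seen, had 1 in each. The control region of Ifnb1 is the textbook case of a virus-inducible enhancer, and the stretch that carries it is shown because Ifnb1 had 0 counts while Ddx58, Mavs, Tbk1 and Irf3 were expressed. It runs from position -164 to -102 relative to the start, on the minus strand, at chr4:88522896-88522958. Capitals mark 3 matches to the core letters recognised by IRF factors, AANNGAAA on either strand, and 1 match to the NF-kB motif.
Ifnb1: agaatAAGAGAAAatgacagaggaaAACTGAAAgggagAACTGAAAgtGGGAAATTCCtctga
The IRF letters occurred in 21.3% of all windows over the 250 bases before the start, and the NF-kB motif in 3.90%, both chosen after the windows were seen. Among the other 8 members with a window, Tlr3 held the NF-kB motif there, and Ddx58 and Tlr3 held the IRF letters once each.

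Most interferon receptor and JAK-STAT genes were expressed. Of 13 receptor and JAK-STAT genes, 11 reached 1 CPM in both, and the median was 1.71 RPKM in B and 2.90 in A. Ptpn2, a phosphatase that dampens the pathway (23.8 RPKM in B, 23.5 in A), the kinase gene Jak1 (11.5 in B, 9.32 in A) and the receptor chain gene Ifnar1 (8.84 in B, 7.51 in A) were highest. Usp18, an interferon-induced inhibitor, had 0 counts in B and 5 in A. Il10rb, a shared chain of the type III interferon receptor, had 12 counts in B and 41 in A, and Ifngr2 stood at 1.68 RPKM in B and 2.90 in A.

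Genes raised by interferon lay on both sides of 1 CPM. Of 26 interferon-stimulated genes, 12 reached 1 CPM in both libraries and 13 lay under it in both. Those 12 are 46.2%, beside 56.4% of all genes with a count and 55.6% of all protein-coding genes, those at 0 counts included. The median of the list was 0.223 RPKM in B and 0.438 in A. The membrane antiviral genes Ifitm2 (398 RPKM in B, 533 in A), Ifitm3 (327 in B, 506 in A) and Ifitm1 (107 in B, 283 in A) were the highest of the list. Isg15, a ubiquitin-like modifier that most cells raise in response to interferon, had 1 count in B and 5 in A. Isg20 had 20 in B and 23 in A, and Ifit1 had 8 in B and 10 in A. Oasl2 stood at 0.160 RPKM in B and 0.535 in A. Transcripts of Isg15, Ifitm1 and Ifitm2 match other genes over at least 200 bases at 95% identity, so their counts are uncertain. The same limit applies to several other list genes named above. Among them, Pcbp2 matches Map3k12 over 1576 bases, Eif2s1 matches Gm12734 over 949 and Il10rb matches Gm21970 over 573. Such a match can be a copy elsewhere or an overlap of exons at the same locus, which the search did not tell apart. Exons of other counted genes overlapped 32.7% of Pcbp2 exon bases on the opposite strand and 14.9% of those of Il10rb on the same strand. Eif2s1 had no such overlap.

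**Figure D2:**
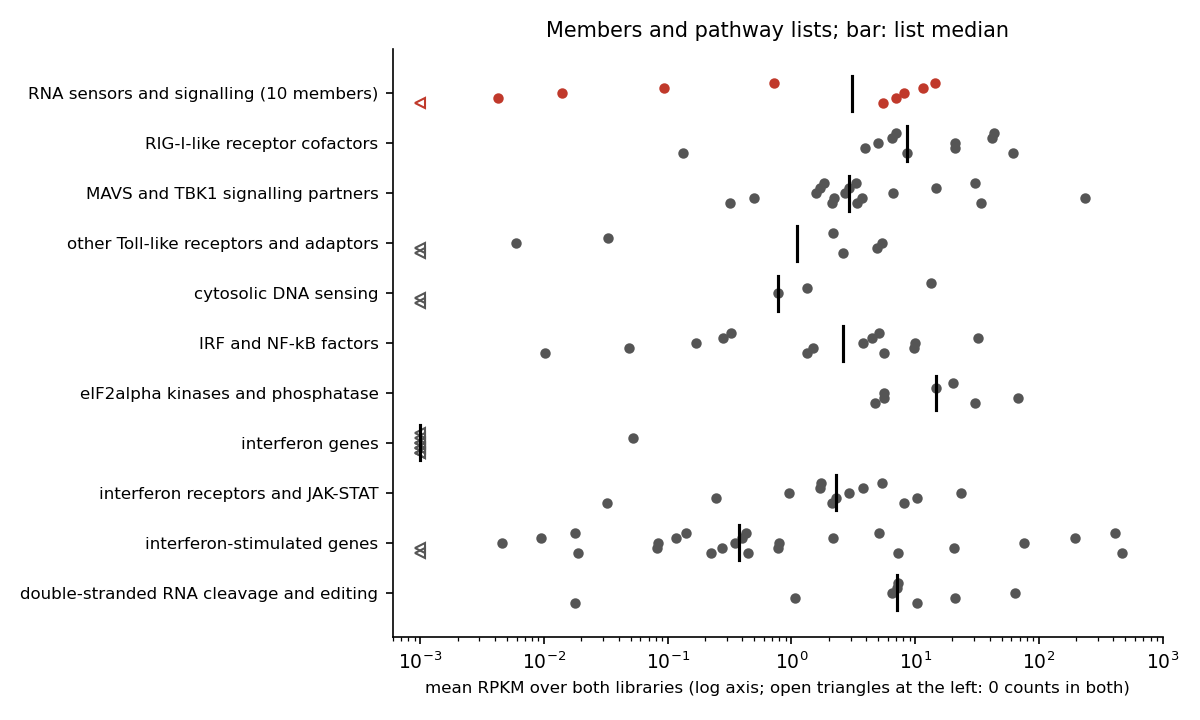
Mean RPKM over both libraries on a log axis, 1 point per gene, for the 10 members (top row) and each pathway list, with a bar at the list median. Open triangles at the left edge are genes with 0 counts in both libraries, which include Ifnb1 and 8 of 9 other interferon genes.

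CpG dinucleotides before the start were counted as a feature that the choice of members did not use. Among members at 1 CPM or more with a window, which leaves out Dhx58, the 250 bases before the start held 31 in Tbk1, 16 in Irf3, 15 in Mavs and 12 each in Ddx58 and Eif2ak2. The members under 1 CPM held 11 in Ifih1, 6 in Tlr3, 3 in Irf7 and 1 in Ifnb1. For comparison, the median was 17 over 9495 expressed protein-coding genes, as defined above (quartiles 11 and 24), and 3 over 6209 such genes under 1 CPM in both (quartiles 1 and 7), taking the richest window of each gene. Ifih1 thus held about as many as Ddx58 and Eif2ak2, although it had a single count per library. The extremes are printed to show the contrast, Tbk1 at chr10:121586795-121587044 and Ifnb1 at chr4:88522795-88523044, both on the minus strand, with each CpG in capitals.
Tbk1: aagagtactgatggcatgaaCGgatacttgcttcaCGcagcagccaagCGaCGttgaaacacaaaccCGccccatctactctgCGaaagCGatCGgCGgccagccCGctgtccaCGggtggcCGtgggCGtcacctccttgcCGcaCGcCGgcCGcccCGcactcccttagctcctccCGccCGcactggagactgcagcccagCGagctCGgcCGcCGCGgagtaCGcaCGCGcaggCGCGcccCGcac
Ifnb1: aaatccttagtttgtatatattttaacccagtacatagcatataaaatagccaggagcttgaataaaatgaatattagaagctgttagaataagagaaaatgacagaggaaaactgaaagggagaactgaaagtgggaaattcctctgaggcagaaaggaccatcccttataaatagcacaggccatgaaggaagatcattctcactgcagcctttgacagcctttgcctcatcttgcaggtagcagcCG

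**Figure D3:**
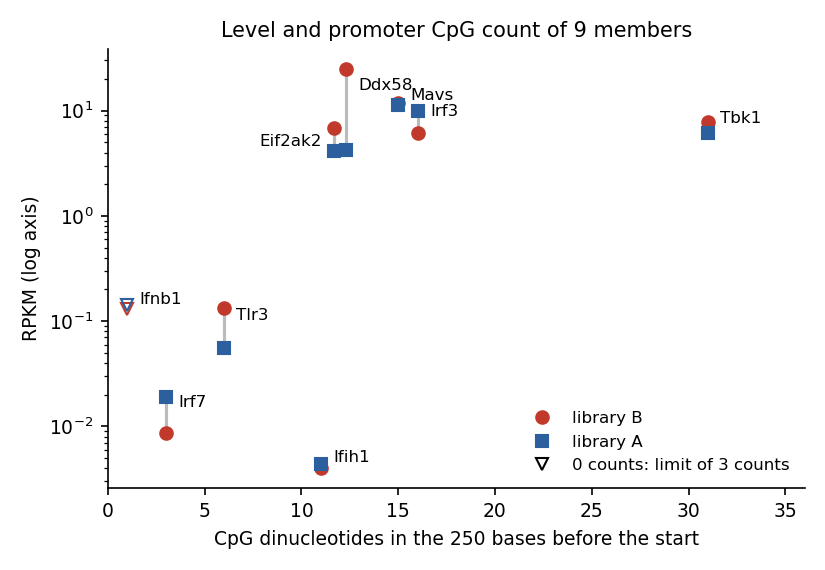
RPKM (log axis) against the number of CpG dinucleotides in the 250 bases before the start for the 9 members with a RefSeq window, with a circle for library B and a square for library A. Ddx58 and Eif2ak2, with 12 CpG each, are drawn slightly apart, and open triangles mark the limit of 3 counts for Ifnb1.

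The spread between the libraries was then measured for each member. For each gene, 0.5 was added to its TMM-scaled CPM, and the log2 ratio is that of B to A, which understates the ratios of low genes. An exact binomial test (two-sided) was run on the counts of the 14583 genes that reached 1 CPM in B or A, with Benjamini-Hochberg adjustment over all of them. It compares these libraries beyond counting noise, not conditions. Nothing in the labels tells separate cultures from repeat libraries of 1 culture, so the spread may be technical. The 6 members that passed the filter on low counts were all called at an adjusted p under 0.05, but so were 76.8% of all tested genes, and a call alone sets the members apart from nothing. Of these, 4 were higher in B and 2 were lower in B, and 38.4% of all tested genes were called in each direction.

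Ddx58 differed most, and few genes of the whole table differed as much. Its TMM-scaled level was 180 CPM in B and 28.6 in A, a log2 ratio of 2.64 or 6.22-fold (counting interval of the scaled ratio 5.86 to 6.80), and its p was too small for double-precision arithmetic. Only 33 of 14583 tested genes (0.226%) had an absolute log2 ratio at least as large. Its nearest tested neighbours on chromosome 4 did not share that size. Aco1, on one side, had a log2 ratio of 0.04 (adjusted p = 0.350, exact binomial test), and Topors, on the other, had 1.07 (2.09-fold). These neighbours were chosen after their values were seen.

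The other 5 tested members differed by less than 2-fold on this scale. Eif2ak2 had a log2 ratio of 0.81 (1.76-fold, adjusted p = 1.9e-29), with 22.0% of tested genes at least as far from equality. Dhx58 had -0.76 (adjusted p = 0.00045) and Irf3 had -0.61 (adjusted p = 1.1e-16), both lower in B. Tbk1 was higher in B by 0.44 (adjusted p = 1.3e-09), which is in the middle of all genes, with 50.02% as far from equality. Mavs had 0.16 (adjusted p = 0.011, exact binomial test). In the same test it was no longer called with library totals in place of TMM (adjusted p = 0.292). With DESeq2 size factors it was called (adjusted p = 0.0054). Of all tested genes, 13.9% were called and at least 2-fold apart, and of the members only Ddx58 was.

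**Figure D4:**
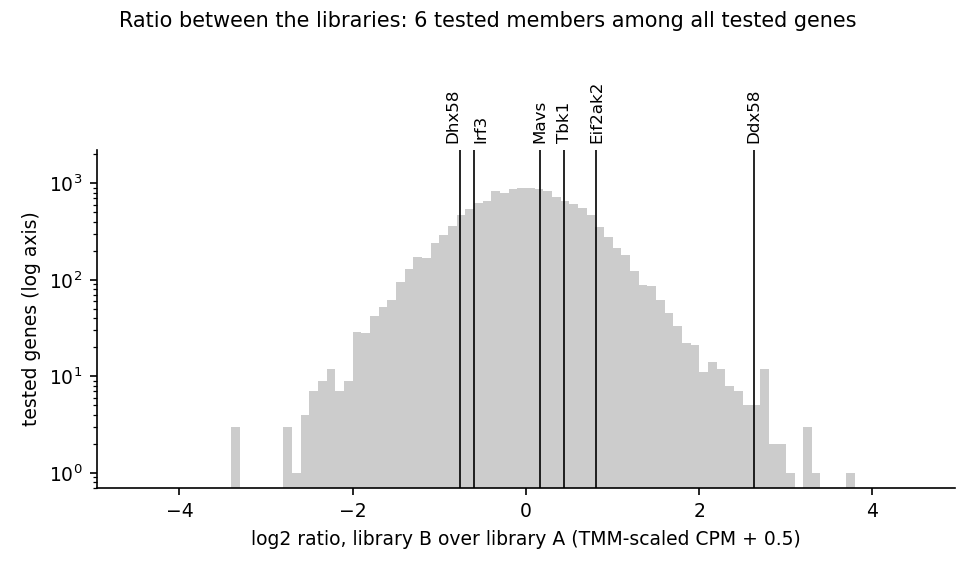
Distribution of the log2 ratio of library B over library A for the 14583 tested genes (bars, log axis), with lines at the 6 tested members. Ddx58, at 2.64, lies in the far upper tail, and the other 5 lie between -0.76 and 0.81 within the bulk.

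Part of these ratios moved with base composition. Sorted into 10 equal groups by GC content of the longest transcript, tested protein-coding genes had a median log2 ratio of 0.52 in the group of lowest GC and -0.58 in that of highest GC. Ddx58, with 46.6% GC, fell in a group with a median of 0.17, and its log2 ratio was 2.42 after correction for GC content and transcript length. Eif2ak2 (43.9% GC) came to 0.45 after the correction and Tbk1 (45.4% GC) to 0.28. Irf3, with 56.7% GC, fell in a group with a median of -0.40, and its log2 ratio shrank to -0.15 (adjusted p = 0.040, exact binomial test). Dhx58 (53.9% GC) came to -0.47. Mavs (53.9% GC) rose from 0.16 to 0.39 (adjusted p = 3.8e-10, exact binomial test). The part of base composition in these ratios was not tested further.

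**Figure D5:**
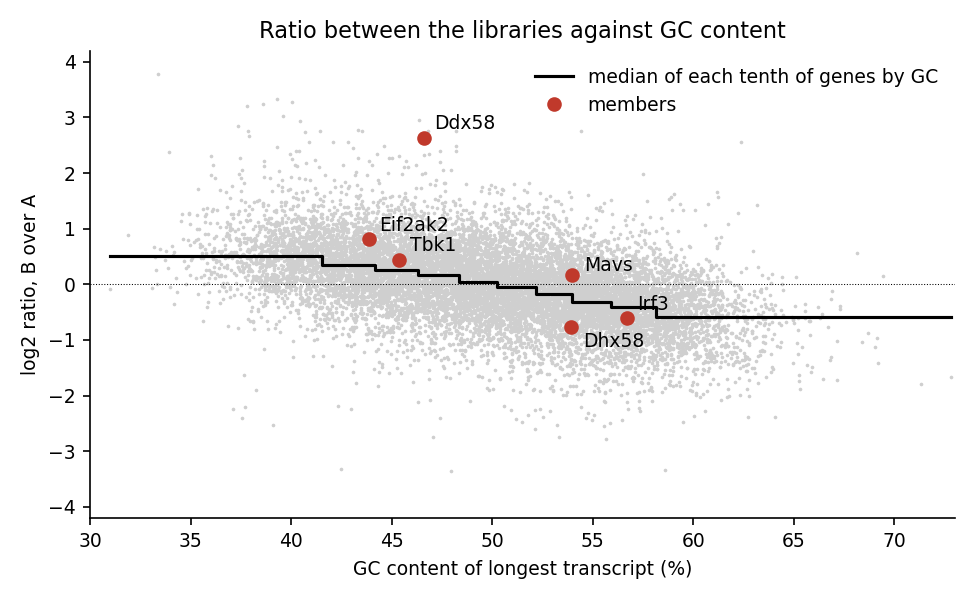
Log2 ratio of library B over library A against GC content of the longest transcript for tested protein-coding genes (grey), with the median of each of 10 groups of genes by GC as a line and the 6 tested members as circles. Ddx58 lies far above the line, and the other 5 members lie within the cloud.

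Other transcripts moved between the same libraries as Ddx58. Of 9 tested endoderm markers 7 were higher in B and 2 were lower in B, beside 38.4% of all tested genes in each direction, with a median log2 ratio of 1.33 against -0.01 over all tested genes. After the GC and length correction 6 were higher and 0 lower in B. Lama1 stood at 142 CPM in B and 47.3 in A and Cubn at 14.3 CPM in B and 1.51 in A, both chosen after their values were seen. Their part in the level of Ddx58 was not tested. Of 8 tested ES cell markers 3 were called higher and 5 lower in B, with a median log2 ratio of -0.12. After the GC and length correction 4 were higher and 4 lower in B, with a median of -0.05. Of 13 tested interferon-stimulated genes, 3 were higher in B, namely Adar, Oas2 and Ifit2, and 10 were lower in B, beside 38.4% of all tested genes in each direction, with a median log2 ratio of -0.71. After the GC and length correction the counts were 3 higher and 7 lower in B, with a median of -0.29, beside 5249 higher and 5029 lower of 14509 tested genes. The largest ratios in that list were those of Ifitm1 (-1.31) and Oasl2 (-1.29).

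Reads from other genes were checked as a source of these counts. No member shared exons with another counted gene on the same strand. On the opposite strand the overlap with counted genes was at most 4.32% of exon bases, in Eif2ak2, and 2.56% in Irf3. No protein-coding gene matched a member's transcripts over at least 200 bases at 95% identity. Tlr3 matched Gm45542, annotated as antisense in the same region, over 258 bases. Transcripts of Ddx58 and Tbk1 hold a stretch that matches many unrelated genes over at least 100 bases, 213 genes for Ddx58 with a longest match of 137 bases and 370 for Tbk1 with a longest match of 149.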

How the data were processed

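Each deposited file gives raw counts for 1 library, as whole numbers per Ensembl gene identifier that the authors had not normalized. Per the submitters' processing notes the tools were STAR 2.4.2a and featureCounts 1.4.5-p1 and the build mm10, and per the labels the TruSeq libraries were reverse-stranded. Which annotation release was counted, with which strand option, and how multiply mapped reads were treated is not given in the sources used here. Names, coordinates, exon lengths and GC content came from GENCODE M21 on GRCm38, the assembly mm10 denotes, in which 42548 of 43629 identifiers matched (99.8% of counts). Promoter windows came from RefSeq on GRCm38.p6.

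CPM were computed over library totals, RPKM over the union of annotated exons, with exact 95% Poisson intervals. TMM factors (edgeR 4.0.16, R 4.3.3) were 0.968 for B and 1.03 for A. With 1 group of 2 libraries no contrast of conditions could be fitted, so an exact binomial test (scipy 1.17.1) compared the libraries, tested first on simulated counts. Transcript matches came from BLAST 2.17.0. The members and 10 pathway lists were chosen with earlier results of these data known. Of each pathway list the text names the 3 highest genes by RPKM, up to 3 under 1 CPM in list order, and the 2 called genes of largest ratio. Trim65, Ticam1, Eif2ak1, Ikbke, Ifne, Oas2 and Ifit2 were named outside this rule, with earlier results of these data known. A gene that this rule names is not reported here. Alternatives were other filters and pseudocounts, size factors from DESeq2 1.42.0, scaling to library totals, Fisher's exact test, TPM, longest-transcript lengths and a loess correction for GC content and length.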

Additional observations from a re-analysis of the deposited data

How the results depend on the processing

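The count of members at 1 CPM or more in both libraries was 6, and it was 6 at a threshold of 0.5 CPM, 5 at 5 CPM and 6 with either replicate left out. The count of members called between the libraries was 6 of 6 tested with DESeq2 size factors. It was 5 of 6 with library totals or Fisher's exact test (without Mavs). With a filter of 5 CPM, which left Dhx58 untested, it was 5 of 5, and with no filter 7 of 9. After the GC and length correction, which was chosen for these counts after seeing the data, it was 6 of 6. With no filter Tlr3 was called as well (log2 ratio 0.64, adjusted p = 0.0495, exact binomial test). All genes called ranged between 9474 and 11653 under these settings, against 11201 of 14583 tested. The lowest count was of 11472 tested genes, with the filter of 5 CPM. The highest was of 23698 tested genes, with no filter. With library totals 11282 of 14583 were called, and after the GC and length correction 10278 of 14509. No log2 ratio of a member changed sign. By RPKM rank, Ddx58 was the first without replicate A and the fourth without replicate B, and Mavs and Irf3 changed places when the longest transcript was the length. No paired analysis was possible because the series holds 1 group. Leaving out a library leaves no test between libraries. Members under 1 CPM rest on at most 21 counts per library, so their ratios are limited by depth.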
